A study of Mus musculus with 6 samples.

Results

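The genes described here are 44 genes of the cardiac sarcomere, its Z-disc and its stretch sensors: filament proteins of the contractile unit, the proteins that anchor and cap those filaments, and the ankyrin repeat proteins that respond to stretch. They were taken by gene symbol from a table of read counts for 56748 mouse genes. All 44 symbols were in the table, and all 44 genes were among the 13888 genes that passed edgeR's filter on low counts (minimum count 10) and were tested. The libraries came from the hearts of 6 mice, 3 Pontin cTG and 3 WT littermates. The Pontin cTG animals express flag-tagged human Pontin from a cDNA behind the promoter of mouse α-myosin heavy chain, which drives expression in cardiomyocytes, on a C57Bl/6 background. WT littermates lack the transgene. Pontin (Ruvbl1) is an ATPase of the AAA+ family and a subunit of chromatin remodelling complexes. Mice of both groups were male, were 10 weeks old at the start, and received angiotensin II (Ang-II, a hormone that raises blood pressure and drives cardiac hypertrophy) at 1.5 mg/kg BW/day from a mini-osmotic pump for 14 days. All libraries are thus of Ang-II-treated hearts, and untreated hearts were not analysed here. How many transgenic founder lines gave these mice is not given in the sources used here.

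The sarcomere is built from thin filaments (actin with tropomyosin and troponin), thick filaments (myosin with its light chains and myosin-binding protein C) and titin, a giant elastic protein that spans from the Z-disc to the M-band. Thin filaments of neighbouring sarcomeres are crosslinked at the Z-disc, whose proteins also link to desmin and the cell membrane. Titin, the Z-disc proteins telethonin and muscle LIM protein, and the muscle ankyrin repeat proteins take part in sensing stretch, and several of their genes are classical markers of pressure overload in the heart.

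Total counts were 12436822 to 13194038 for WT and 14584102 to 16888124 for Pontin cTG, so depth did not overlap between the groups. The 44 genes took 4.91% to 5.80% of all counts in a library, and mitochondrial transcripts took 23.8% to 26.7%. Pontin cTG replicate 2 stood apart on the first principal component (52.7% of the variance), at 43.5 against -17.4 to 11.0 for the other 5 libraries. *Ruvbl1*, the mouse Pontin gene, had 218 ± 2.72 normalised counts in the WT hearts and 247 ± 5.79 in the Pontin cTG ones (SD, n = 3 each). The Pontin cTG values lay wholly above the WT ones, as for 4.7% of all genes tested. This count is of the mouse gene, and whether reads of the human transgene add to it was not tested. The summed level of 10 cardiomyocyte markers was 809530 to 896354 in the WT hearts and 755842 to 827742 in the Pontin cTG ones, and 9 of 10 skeletal muscle markers stayed under 20 counts in every library, the exception being *Mybpc2*. Of 4 atrial markers, *Myl7*, *Sln* and *Bmp10* together reached at most 7.85 normalised counts in a library, while *Nppa* had 7716 in Pontin cTG replicate 2 and 360.4 to 1842 in the other 5. Pontin cTG replicate 2 also had the lowest cardiomyocyte sum, with 4 of the 10 markers higher and 6 lower in the mean of Pontin cTG hearts. *Atp2a2* and *Ryr2* had their lowest values there, 98169 and 10842, and *Ckmt2* and *Cox6a2* their highest, 28888 and 16817. The highest *Atp2a2* value of the 6 libraries was 194134. *Myh6*, the most abundant of the 10, had 264811 in Pontin cTG replicate 2, beside a mean of 249344 over the 6 libraries. The sum of 6 endothelial markers was highest there, 16724 against 11189 to 13077 in the others. Of these markers, 5 were higher and 1 lower in the mean of Pontin cTG hearts. In Pontin cTG replicate 2 the sum of 8 fibroblast markers (4 higher and 4 lower) was 28611, beside 28507 in WT replicate 2 and 15060 to 18822 in the other 4. The load-linked genes *Nppb*, *Myh7*, *Myh7b* and *Acta1* were likewise highest there, at 6422, 20807, 1530 and 20631 normalised counts. The part of these differences in the results was not tested. In bulk heart RNA, fewer cardiomyocytes and less RNA per cardiomyocyte cannot be told apart. A low sum can also come from 1 abundant marker, so the sum does not measure cardiomyocyte content.

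Pontin cTG hearts were compared with WT hearts to ask whether raised Pontin alters the transcripts of the contractile apparatus under Ang-II. No gene of the 44 differed at an adjusted p of 0.05 (edgeR's quasi-likelihood test, Benjamini-Hochberg adjusted over all 13888 genes), and the adjusted p was 0.999 for each of them. Over all genes, 0 (0%) passed that threshold. At an unadjusted p under 0.05 there were 0 of the 44 genes, and 285 of all genes tested (2.05%). Of the 44 genes, 17 had a higher and 27 a lower mean in the Pontin cTG group. The median of their log2 fold changes was -0.08 beside 0.001 for all genes tested, and 40 of 44 (90.9%) lay within 1.25-fold of WT, beside 85.0% of all genes. When libraries were scaled to the cardiomyocyte markers, the median of the 44 was 0.001 beside 0.09 for all genes, so its sign turned while it still lay under that of all genes. With that scaling 22 of the 44 genes had a higher and 22 a lower mean in the Pontin cTG group. The median standard error of the 44 was 0.17 on the log2 scale.

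The 3 Pontin cTG values lay wholly above or below the 3 WT values for 4 of the 44 genes (9.09%), beside 1157 of all genes (8.33%). *Myl2*, *Myl3* and *Tpm1* lay above, as did 653 of all genes (4.7%), and *Nebl* lay below, as did 504 of all genes (3.63%). For each of these 4 genes a two-sided exact permutation test gives p = 0.1, the smallest that 3 hearts against 3 allow. The share of the 44 genes was therefore close to that of all genes.

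**Figure D1:**
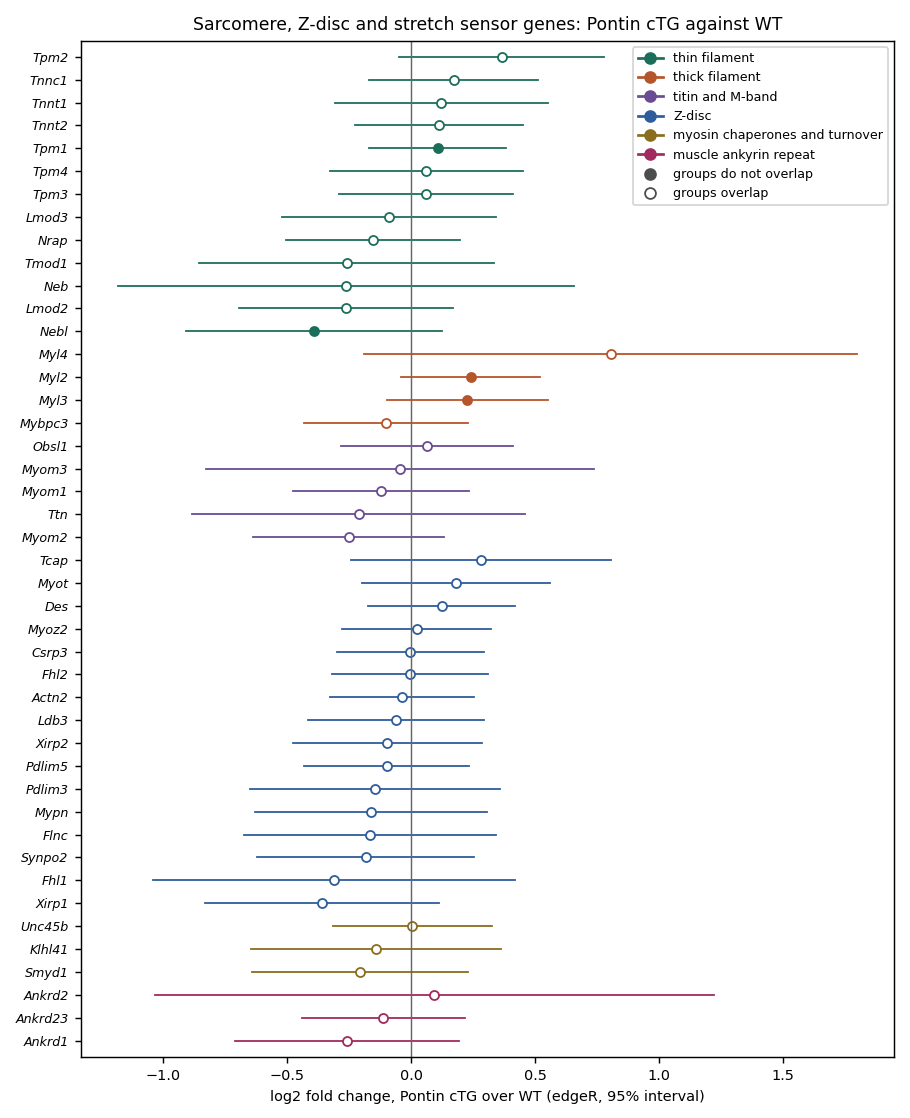
Log2 fold change of each of the 44 genes between Pontin cTG and WT hearts (x axis) with its 95% interval from edgeR (n = 3 hearts per group), one row per gene, coloured by role. Filled points mark the 4 genes whose groups do not overlap, and every interval includes 0.

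Thick filament genes had the highest median of the 6 roles, at 0.23 on the log2 scale, with 3 of 4 genes higher in Pontin cTG hearts. *Myl2* (ENSMUSG00000013936, GRCm38 chr5:122100951-122113472), the ventricular regulatory light chain that binds the neck of myosin, had 75324, 72382 and 71465 normalised counts in the WT hearts and 80167, 92482 and 86224 in the Pontin cTG ones. The groups did not overlap, with Pontin cTG replicate 1 the lowest of its group and Pontin cTG replicate 2 the highest. The fold change was 1.18 (log2 0.24, SE 0.12, unadjusted p = 0.0841 in edgeR's model), and the 95% interval reached from -0.04 to 0.52. *Myl3* (ENSMUSG00000059741, chr9:110741861-110769798), the ventricular essential light chain, had 64887, 52624 and 70470 normalised counts in the WT hearts and 72000, 73968 and 73893 in the Pontin cTG ones. WT replicate 2 was the lowest of the 6 and WT replicate 3 the nearest to the Pontin cTG values. The log2 fold change of *Myl3* was 0.23 (SE 0.14), and 0.11 without WT replicate 2. *Mybpc3*, cardiac myosin-binding protein C, which restrains the myosin heads, had 53378 ± 4955 normalised counts in the WT hearts and 49696 ± 5787 in the Pontin cTG ones (SD, n = 3 each). The difference was -0.10 on the log2 scale (SE 0.15), and -0.01 without Pontin cTG replicate 3.

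*Myl4*, the atrial essential light chain, had the largest fold change of all 44 genes and one of the lowest levels. It had 8.81, 21.3 and 23.5 normalised counts in the WT hearts and 28.3, 43.7 and 21.7 in the Pontin cTG ones. WT replicate 1 was the lowest and Pontin cTG replicate 2 the highest, and Pontin cTG replicate 3 lay among the WT values. The log2 fold change was 0.80 (SE 0.44), with a 95% interval from -0.19 to 1.80. It was 0.48 without WT replicate 1 and likewise 0.48 without Pontin cTG replicate 2, in which *Nppa* was also highest. The atrial genes *Myl7*, *Sln* and *Bmp10* were at 0 in Pontin cTG replicate 2, and their sum was highest in WT replicate 2, at 7.85 normalised counts. The part of atrial tissue in the *Myl4* values was not tested. *Myl4* made up 0.01% to 0.03% of the essential light chain transcripts per length, and *Myl3* the rest.

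Among the 13 thin filament genes, 7 were higher and 6 lower in the Pontin cTG group, the median being 0.06 on the log2 scale. All 4 tropomyosins and all 3 troponin subunits among the 44 had higher means, and the 6 genes with lower means were those of the nebulin family, both leiomodins and tropomodulin 1. Tropomyosins lie along actin and block myosin until calcium binds troponin. *Tpm1* (ENSMUSG00000032366, chr9:67022590-67049406), the main cardiac tropomyosin, had 98663, 99705 and 103487 normalised counts in the WT hearts and 104212, 103510 and 117264 in the Pontin cTG ones. The groups did not overlap, but WT replicate 3 and Pontin cTG replicate 2 were nearly equal, and Pontin cTG replicate 3 alone stood above the rest. *Tpm1* had a log2 fold change of 0.11 (SE 0.12), which was 0.046 without Pontin cTG replicate 3, and the separation was lost with DESeq2's size factors, without the filter on low counts and without mitochondrial genes.

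*Tpm2*, the beta isoform typical of slow skeletal muscle, had the smallest unadjusted p of the 44 genes. It had 392, 284 and 320 normalised counts in the WT hearts and 363, 526 and 393 in the Pontin cTG ones. WT replicate 1 lay above Pontin cTG replicate 1, so the groups overlapped, and Pontin cTG replicate 2 was the highest. The fold change was 1.29 (log2 0.37, SE 0.18, unadjusted p = 0.0762 in edgeR's model), and 0.19 on the log2 scale without Pontin cTG replicate 2. *Tpm3* and *Tpm4*, mostly cytoskeletal tropomyosins, had log2 fold changes of 0.06 each (SE 0.15 and 0.17). Per length, *Tpm1* made up 94.0% to 96.3% of tropomyosin transcripts and *Tpm2* 0.60% to 1.06%, with overlapping groups for each of the 4 genes. Tropomyosins share sequence, so reads shared between them could be split or dropped by the counting.

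Of the troponins, *Tnnc1* (the calcium-binding subunit of heart and slow muscle) had 23374 ± 1837 normalised counts in the WT hearts and 26324 ± 3643 in the Pontin cTG ones (SD, n = 3 each), with the highest value, 30449, in Pontin cTG replicate 2. *Tnnt2*, cardiac troponin T, which ties the complex to tropomyosin, had 60107 in Pontin cTG replicate 1 and 82380 in Pontin cTG replicate 2, the lowest and highest of its 6 values. *Tnnt1*, the slow skeletal isoform, had 118 ± 19.5 in the WT hearts and 129 ± 16.9 in the Pontin cTG ones (SD, n = 3 each). It held 0.54% to 0.72% of troponin T transcripts per length in these hearts. Log2 fold changes of the 3 were 0.17 (SE 0.15), 0.11 (SE 0.15) and 0.12 (SE 0.19), in this order. Without Pontin cTG replicate 2 they were 0.054, 0.023 and 0.014.

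*Nebl* (ENSMUSG00000053702, chr2:17343909-17731464), which encodes nebulette, a cardiac nebulin relative that binds actin near the Z-disc, had the lowest log2 fold change of the 44 genes. It had 4775, 5152 and 4963 normalised counts in the WT hearts and 4602, 2433 and 4328 in the Pontin cTG ones. The groups did not overlap, and Pontin cTG replicate 2 was far under the other 5 libraries. The fold change was 0.763 (log2 -0.39, SE 0.23, unadjusted p = 0.121 in edgeR's model), and -0.15 on the log2 scale without Pontin cTG replicate 2. *Nrap*, a nebulin-related anchoring protein of the intercalated disc, had a log2 fold change of -0.15 (SE 0.16). As shares of nebulin family transcripts per length, *Nebl* took 12.7% ± 0.18 in the WT hearts and 10.8% ± 1.99 in the Pontin cTG ones and *Nrap* 87.1% ± 0.08 and 89.0% ± 1.86 (SD, n = 3 each). Neither share overlapped between groups, but with *Neb* at 0.16% to 0.39% these shares mirror each other and are not separate results. The *Nebl* share was 8.53% in Pontin cTG replicate 2 and 11.4% and 12.3% in Pontin cTG replicates 1 and 3. *Neb* itself, the long ruler of skeletal thin filaments, was low, at 95.3 to 196 in Pontin cTG hearts and 107 to 282 in WT. Its highest value was in WT replicate 2, and its log2 fold change of -0.26 (SE 0.41) became 0.36 without that library.

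*Lmod2* and *Lmod3*, leiomodins that lengthen thin filaments, and *Tmod1*, tropomodulin, which caps their pointed ends, shared a low value in Pontin cTG replicate 2. *Tmod1* had 3543, 2996 and 3562 normalised counts in the WT hearts and 3417, 1630 and 3384 in the Pontin cTG ones. The value in Pontin cTG replicate 2 was far under the other 5, and the log2 fold change of -0.26 (SE 0.26) was 0.01 without it. *Lmod2* had log2 fold changes of -0.26 (SE 0.19) with all libraries and -0.10 without Pontin cTG replicate 2, and *Lmod3* of -0.09 (SE 0.19) and 0.07.

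**Figure D2:**
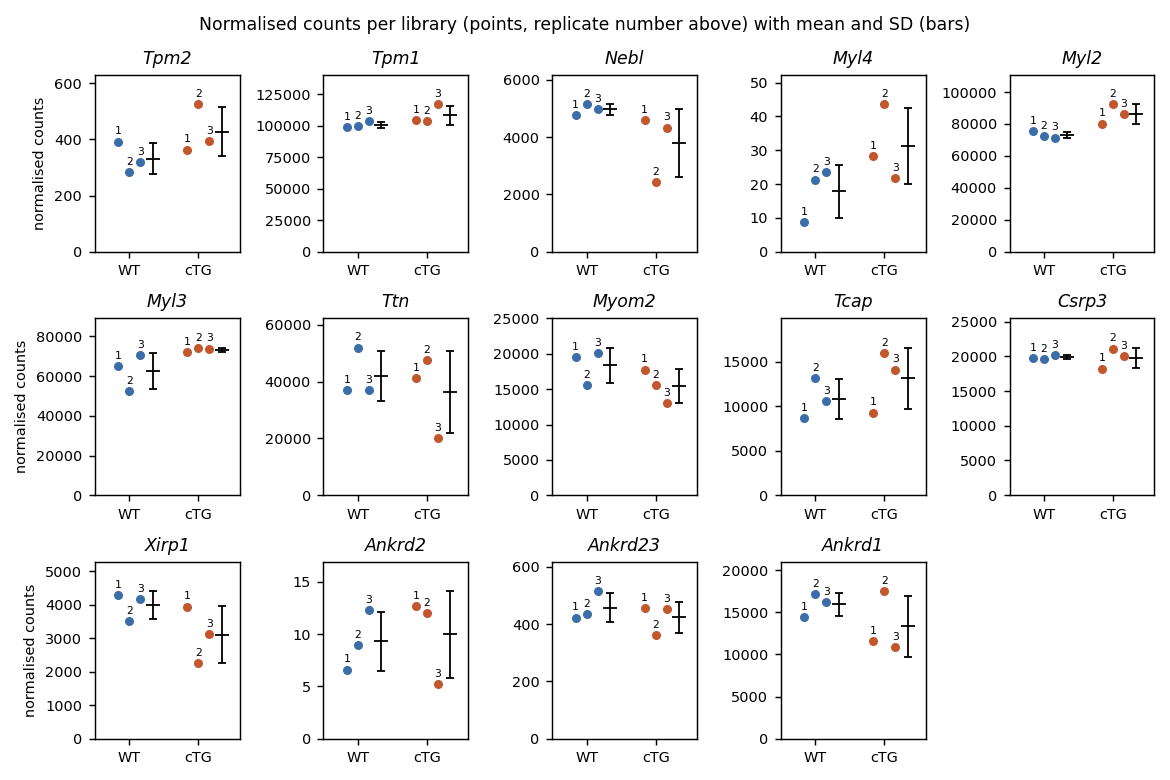
Normalised counts (y axis, from 0) of 14 genes in each WT and Pontin cTG library (points, with the replicate number above), with the mean and SD of each group (bars, n = 3 hearts). *Myl2*, *Myl3*, *Tpm1* and *Nebl* have groups that do not overlap, and Pontin cTG replicate 2 is far below the other libraries for *Nebl* and *Xirp1*.

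Of titin and the 4 M-band genes, 1 was higher and 4 were lower in the Pontin cTG group, the median being -0.12 on the log2 scale. *Ttn* (ENSMUSG00000051747, chr2:76703980-76982547) had 36947, 52005 and 37071 normalised counts in the WT hearts and 41215, 47588 and 20004 in the Pontin cTG ones. The value of Pontin cTG replicate 3 was the lowest by far and that of WT replicate 2 the highest, while the other 2 Pontin cTG hearts lay within the WT range. The log2 fold change was -0.21 (SE 0.30) and 0.08 without Pontin cTG replicate 3. *Myom2*, a myomesin that crosslinks thick filaments at the M-band, had 19536, 15526 and 20100 in the WT hearts and 17768, 15523 and 13061 in the Pontin cTG ones. WT replicate 2 lay below Pontin cTG replicate 1, so the groups overlapped, and the other 2 Pontin cTG hearts were below every WT value, Pontin cTG replicate 2 by a narrow margin. Its log2 fold change was -0.25 (SE 0.17, unadjusted p = 0.174 in edgeR's model), and -0.14 without Pontin cTG replicate 3. *Myom1*, the myomesin of all striated muscle, had a log2 fold change of -0.12 (SE 0.16), and *Myom3*, with 34.2 to 74.9 normalised counts, one of -0.05 (SE 0.35). *Obsl1*, an obscurin-like M-band protein, had one of 0.06 (SE 0.15). *Myom1* held 52.0% to 59.2% of myomesin transcripts per length and *Myom2* 40.6% to 47.7%. The gene *Myl12a* overlaps *Myom1* on the opposite strand and had 19.6% as many counts. Likewise *Nisch* overlaps *Tnnc1* with 9.62% as many counts, *Krcc1* overlaps *Smyd1* with 9.21%, *Tstd2* overlaps *Tmod1* with 4.94%, and the noncoding *Gm11665* and *Gm22000* overlap *Myl4* with 9.80% and 8.50%. These are overlaps of whole gene spans, so part of the reads of these 5 genes may be uncertain where exons overlap.

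Among the 16 Z-disc genes, 4 were higher and 12 lower, with a median log2 fold change of -0.08, and none had groups that did not overlap. *Csrp3*, muscle LIM protein, was among the most even of all 44 genes, with 19708, 19637 and 20195 normalised counts in the WT hearts and 18233, 21095 and 20072 in the Pontin cTG ones. The Pontin cTG values lay on both sides of all WT values. Its log2 fold change was -0.003 with a 95% interval from -0.30 to 0.29. *Tcap*, telethonin, which binds the titin end in the Z-disc, had 8629, 13158 and 10555 in the WT hearts and 9275, 15977 and 14099 in the Pontin cTG ones. Both Pontin cTG replicates 2 and 3 were above every WT library, and Pontin cTG replicate 1 was below 2 of them. Its log2 fold change was 0.28 (SE 0.23), 0.49 when Pontin cTG replicate 1 was left out and 0.12 when Pontin cTG replicate 2 was.

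*Xirp1*, an actin-binding Xin repeat protein of the intercalated disc, had 4279, 3513 and 4174 normalised counts in the WT hearts and 3943, 2251 and 3121 in the Pontin cTG ones. Pontin cTG replicates 2 and 3 were below every WT library, and Pontin cTG replicate 1 was above WT replicate 2. The fold change was 0.778 (log2 -0.36, SE 0.21, unadjusted p = 0.117 in edgeR's model), and the log2 value moved to -0.18 when Pontin cTG replicate 2 was left out and to -0.56 when Pontin cTG replicate 1 was. Its relative *Xirp2* had a log2 fold change of -0.10 (SE 0.17), and the share of *Xirp1* in the transcripts of both per length was 39.3% ± 2.07 in the WT hearts and 34.9% ± 4.99 in the Pontin cTG ones (SD, n = 3 each), with overlapping groups. The gene *Cx3cr1* overlaps *Xirp1* on the same strand and had 4.11% as many counts.

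*Actn2* (α-actinin, which crosslinks thin filaments), *Myoz2* (calsarcin, a calcineurin binder), *Ldb3* (cypher), *Des* (desmin, the muscle intermediate filament) and *Fhl2* (a LIM protein that binds titin) had log2 fold changes of -0.04, 0.02, -0.06, 0.12 and -0.005, with standard errors from 0.13 to 0.16. *Myot* (myotilin) and the PDZ-LIM genes *Pdlim3* and *Pdlim5* had 0.18 (SE 0.17), -0.15 (SE 0.22) and -0.10 (SE 0.15). *Mypn* (myopalladin), *Flnc* (filamin C) and *Synpo2* (an actin bundler) had -0.16 (SE 0.21), -0.17 (SE 0.22) and -0.18 (SE 0.19). *Mypn* and *Synpo2* were lowest in Pontin cTG replicate 2, and without it their log2 fold changes were 0.02 and 0.004. *Flnc* was lowest in Pontin cTG replicate 3, at 3630 against 5137 to 7027 in the other libraries.

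*Fhl1*, a LIM protein that takes part in stretch sensing with titin, was decided by a single WT library. It had 4857 normalised counts in WT replicate 2 and 1887 to 2483 in the other 5. Its log2 fold change was -0.31 (SE 0.32) with all libraries and 0.25 without WT replicate 2. That library also had the highest *Neb*, *Pdlim3* and *Klhl41*.

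The 3 genes of myosin folding and turnover had log2 fold changes of 0.005 (SE 0.14) for *Unc45b*, the myosin chaperone, -0.21 (SE 0.19) for *Smyd1*, a muscle methyltransferase needed for myofibril assembly, and -0.14 (SE 0.22) for *Klhl41*, a kelch protein of skeletal and cardiac myofibrils. *Smyd1* had 8265 to 8708 normalised counts in 5 libraries and 5333 in Pontin cTG replicate 2, and its log2 fold change without that library was -0.02. All 3 genes were lowest in Pontin cTG replicate 2.

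The muscle ankyrin repeat proteins bind titin's N2A region and move between the sarcomere and the nucleus. *Ankrd1* (CARP, ENSMUSG00000024803, chr19:36111961-36120099) is the cardiac member and a well-known gene of load and of the YAP and TEAD factors, the end of the Hippo pathway. It had 14433, 17162 and 16208 normalised counts in the WT hearts and 11554, 17520 and 10894 in the Pontin cTG ones. Pontin cTG replicates 1 and 3 were below every WT library, and Pontin cTG replicate 2 was the highest of the 6. The log2 fold change was -0.26 (SE 0.20), with a 95% interval from -0.71 to 0.19. Without Pontin cTG replicate 2 it was -0.51, with an unadjusted p = 0.00097 and adjusted p = 0.889 in edgeR's test, and over the 15 alternative settings the adjusted p ran from 0.855 to 0.9998.

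*Ankrd2*, the form typical of slow skeletal muscle, had 6.61, 8.97 and 12.3 normalised counts in the WT hearts and 12.7, 11.99 and 5.20 in the Pontin cTG ones. These are 6 to 14 reads per library, and the interval of its log2 fold change ran from -1.03 to 1.22, so no difference was detectable at this depth. *Ankrd23* (DARP) had 423, 434 and 515 in the WT hearts and 456, 361 and 453 in the Pontin cTG ones. The groups overlapped, with Pontin cTG replicate 2 lowest and WT replicate 3 highest. The log2 fold change was -0.11 (SE 0.15), and -0.01 without either of these libraries. Per length, *Ankrd1* made up 95.6% to 97.7% of the transcripts of the 3 genes.

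The study followed the Hippo pathway, whose TEAD factors bind the M-CAT core CATTCC (its other strand reads GGAATG). Promoter sequence is shown for 4 genes picked because their window holds that core, *Myl3* and *Tpm1*, which had separated groups, and the stretch-linked *Ankrd1* and *Ttn*. The windows of *Myl2*, which also had separated groups, and of the stretch-linked *Csrp3* and *Ankrd2* held none, and 1 of 4 windows of *Nebl* held one. The *Myl2* windows have starts 8227 and 7762 bases from the nearest transcript start of that gene in GENCODE M21. For the *Nebl* window with a core this distance is 60878 bases. The *Myl2* windows therefore do not show whether its annotated starts have a core nearby. The *Nebl* windows with starts 67 and 91 bases from an annotated transcript start held no core. The windows are RefSeq's, on GRCm38.p6, 300 bases each, from 250 before the start of transcription, written 5′ to 3′ on the gene's strand, with each M-CAT core in capitals. They are chr9:110763428-110763727 (+) for *Myl3*, chr9:67049164-67049463 (-) for *Tpm1*, chr19:36119795-36120094 (-) for *Ankrd1* and chr2:76982498-76982797 (-) for *Ttn*.
Myl3: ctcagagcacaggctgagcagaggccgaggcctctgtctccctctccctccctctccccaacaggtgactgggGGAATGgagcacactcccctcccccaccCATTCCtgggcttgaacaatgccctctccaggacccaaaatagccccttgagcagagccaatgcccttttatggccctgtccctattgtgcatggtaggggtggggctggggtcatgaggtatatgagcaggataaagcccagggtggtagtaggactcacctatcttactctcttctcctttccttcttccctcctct
Tpm1: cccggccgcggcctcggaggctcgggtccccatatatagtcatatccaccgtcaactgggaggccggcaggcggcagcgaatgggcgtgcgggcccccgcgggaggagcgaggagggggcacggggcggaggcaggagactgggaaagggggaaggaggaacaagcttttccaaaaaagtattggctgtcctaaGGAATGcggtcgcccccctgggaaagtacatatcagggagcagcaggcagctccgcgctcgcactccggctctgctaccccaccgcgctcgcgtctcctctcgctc
Ankrd1: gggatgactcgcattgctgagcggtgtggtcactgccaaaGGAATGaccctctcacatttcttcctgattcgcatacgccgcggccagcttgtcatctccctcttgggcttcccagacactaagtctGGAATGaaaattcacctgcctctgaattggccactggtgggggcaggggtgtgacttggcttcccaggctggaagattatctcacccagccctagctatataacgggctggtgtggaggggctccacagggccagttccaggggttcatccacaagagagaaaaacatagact
Ttn: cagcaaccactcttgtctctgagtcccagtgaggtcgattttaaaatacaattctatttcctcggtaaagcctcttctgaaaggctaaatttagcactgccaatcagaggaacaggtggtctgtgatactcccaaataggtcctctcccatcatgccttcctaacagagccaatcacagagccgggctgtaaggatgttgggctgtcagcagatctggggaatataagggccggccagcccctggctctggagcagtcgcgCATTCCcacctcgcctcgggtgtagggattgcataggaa
The cores begin 177 and 149 bases before the start in *Myl3*, 56 before it in *Tpm1*, 210 and 123 before it in *Ankrd1* and 11 after it in *Ttn*. The starts lie 32, 0, 66 and 0 bases from the nearest transcript start of these genes in GENCODE M21.

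RefSeq windows were found for 38 of the 44 genes, 51 windows in all. An M-CAT core on either strand was in 14 of them (27.5%), in 12 genes, beside 14.7% of all 32851 windows. Of those 12 genes, 4 were higher and 8 lower in Pontin cTG hearts, with log2 fold changes from -0.39 to 0.23. The lowest was that of *Nebl*, whose core lay in the window far from an annotated start. The letters AGATAA of the GATA core were in 17.6% of the windows of these genes and 11.2% of all windows, and TATAAA, the TATA box, in 17.6% and 13.6%. MEF2 sites were in 15.7% and 3.19%, and CArG boxes, bound by serum response factor, in 15.7% and 1.63%. Windows of a gene can overlap and share a match. These matches are letters in a sequence and were not tested for binding.

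Levels can be compared between genes only per length, here as normalised counts per kilobase of summed exon length. That length need not be the length of the transcript present in heart, so levels and family shares per length are approximate. *Myl2* was highest, at 37465 ± 1034 in the WT hearts and 44252 ± 3158 in the Pontin cTG ones (SD, n = 3 each), followed by *Myl3* and *Tnnc1*. *Tcap*, *Fhl2* and *Mybpc3* were between 11372 and 14371 per kilobase in both groups, and *Ankrd1* was at 5521 ± 480 in the WT hearts and 4616 ± 1265 in the Pontin cTG ones (SD, n = 3 each). *Ttn*, the longest, with 117334 bases, was at 358 ± 73.8 per kilobase in the WT hearts and 309 ± 123 in the Pontin cTG ones (SD, n = 3 each). *Myom3*, *Ankrd2*, *Neb* and *Myl4* were the 4 lowest, each at or under 8.83 per kilobase in both groups.

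**Figure D3:**
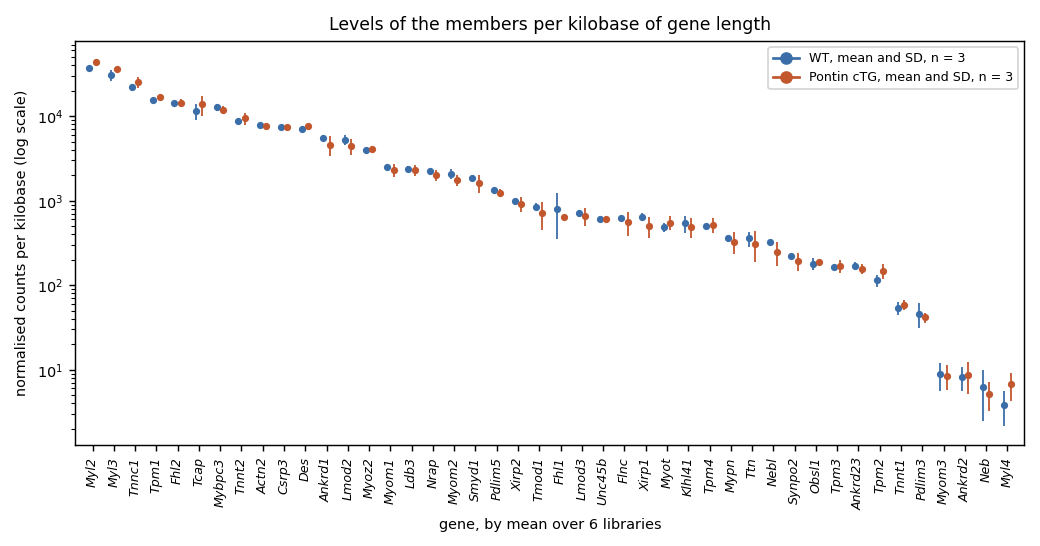
Normalised counts per kilobase of summed exon length (y axis, log scale) of the 44 genes in order of their mean, with the mean and SD of each group (n = 3 hearts). *Myl2* leads at 37465 in WT, and *Myom3*, *Ankrd2*, *Neb* and *Myl4* lie under 10.

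The libraries within a group also differed from each other. Pontin cTG replicate 2 was the highest library for 12 genes and the lowest for 15, and Pontin cTG replicate 3 was the lowest for 11. The 12 genes highest in Pontin cTG replicate 2 held the 3 light chains, the 3 troponins, 3 of the 4 tropomyosins, *Csrp3*, *Tcap* and *Ankrd1*. The 15 lowest there held *Nebl*, *Nrap*, *Tmod1*, both leiomodins and all 3 genes of myosin folding and turnover. Pontin cTG replicate 2 is the library with the lowest cardiomyocyte and highest endothelial marker sums, though not every cardiomyocyte marker was low there. The cardiomyocyte sum leans on a few abundant genes, of which *Atp2a2* was low there and *Myh6* was not. The coefficient of variation over 6 libraries ran from 4.73% for *Csrp3* to 48.2% for *Neb*.

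**Figure D4:**
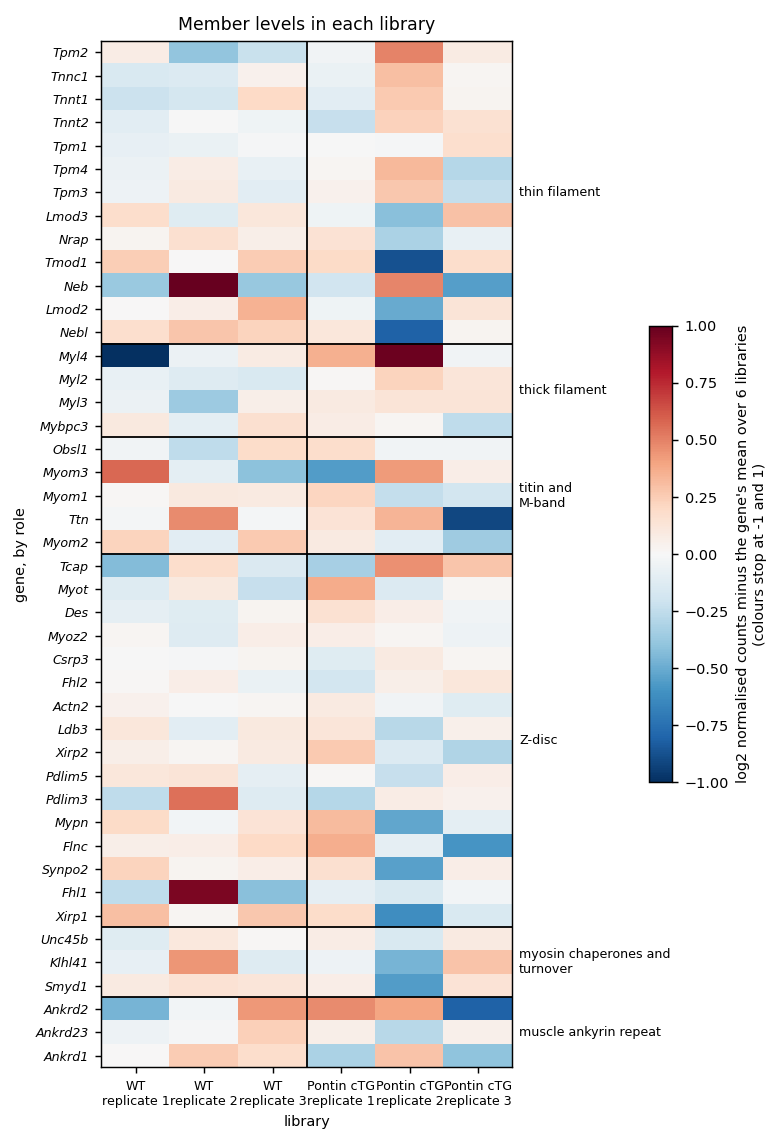
Log2 normalised counts minus each gene's mean over the 6 libraries (colour, from -1 to 1) for the 44 genes (rows, by role) in each library (columns). Pontin cTG replicate 2 is low for *Nebl*, *Tmod1* and *Smyd1* and high for *Tpm2*, *Tcap* and *Myl4*, and Pontin cTG replicate 3 is low for *Ttn*.

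Long and short genes went apart in some libraries. Spearman's rho between a gene's deviation from its mean over libraries and its summed exon length was 0.37, 0.29 and 0.06 for the WT libraries 1 to 3 and 0.32, -0.21 and -0.38 for the Pontin cTG libraries 1 to 3 (44 genes of the same libraries, which are not independent). Over all 13888 genes it was 0.18, 0.17 and 0.11 in the WT hearts and 0.08, -0.20 and -0.16 in the Pontin cTG ones. In Pontin cTG replicate 3, *Ttn*, *Flnc* and *Neb* had deviations of -0.91, -0.59 and -0.55. The part of gene length or RNA quality in the group values was not tested.

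**Figure D5:**
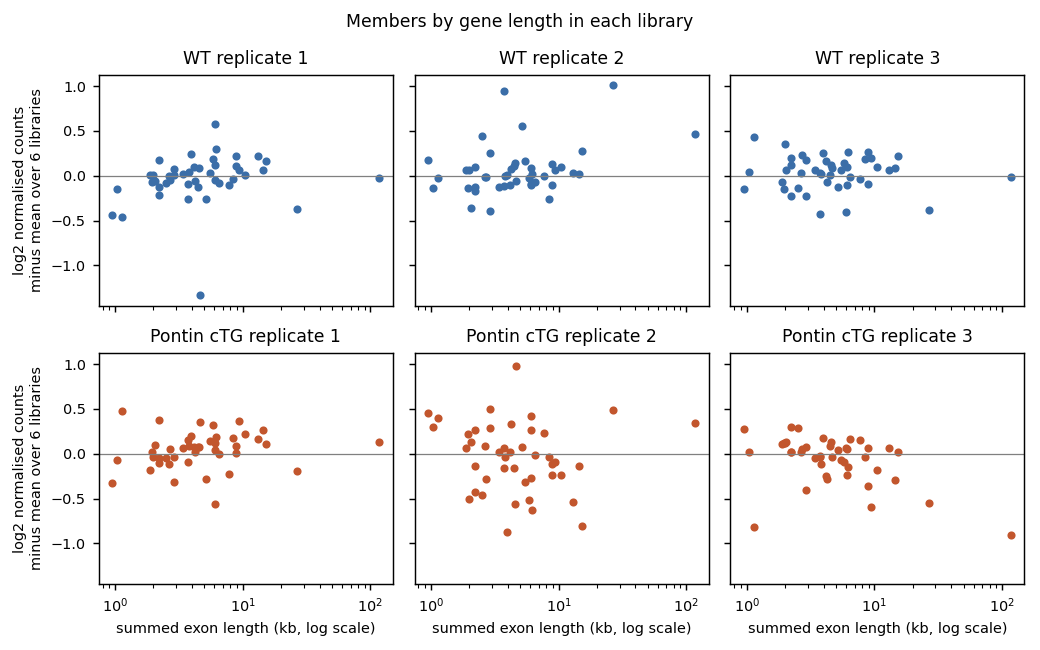
Deviation of each of the 44 genes from its mean over the 6 libraries (y axis, log2 normalised counts) against summed exon length (x axis, log scale), one panel per library. Longer genes lie lower in Pontin cTG replicates 2 and 3, with rho of -0.21 and -0.38, and not in the other 4 libraries.

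Other genes of the sarcomere and the costamere, the membrane anchor of the Z-disc, gave similar counts. Of 54 such genes in the table, 48 were tested, 17 higher and 31 lower, with a median log2 fold change of -0.09, and 5 had groups that did not overlap (10.4%). Only *Sorbs2*, an adaptor of the Z-disc and intercalated disc, had an unadjusted p under 0.05 (log2 fold change -0.36, SE 0.15, adjusted p = 0.999 in edgeR). The next in the lower direction were *Palld* (palladin) at -0.40 (SE 0.18) and *Vcl* (vinculin) at -0.44 (SE 0.21), and in the higher direction *Tnni3* (cardiac troponin I) at 0.30 (SE 0.14), *Lims2* at 0.35 (SE 0.23) and *Pdlim7* at 0.27 (SE 0.18). *Tnni3*, the troponin subunit outside the 44 genes, had 38337, 39057 and 39789 normalised counts in the WT hearts and 42123, 50040 and 52444 in the Pontin cTG ones and its groups did not overlap. *Myh6*, the main adult myosin heavy chain, whose promoter also drives the transgene, had a log2 fold change of -0.18 (SE 0.19).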

How the data were processed

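RNA-seq libraries of 3 Pontin cTG and 3 WT hearts were compared. The authors deposited one table of whole-number counts per gene, with no normalisation. The submitters' processing notes name fastp, HISAT2, featureCounts, DESeq2 and GRCm39, whereas the methods of the paper name Trimmomatic, STAR and mm10, so the steps behind the counts are unsettled. The table's own gene coordinates were used only to find overlapping genes and are not printed: of the 44 genes (members), 2 have the same coordinates in GENCODE M21 on GRCm38, the source of the positions above. The methods state that a principal component outlier was excluded, without naming it, and all 6 deposited libraries were used here. The library kit they name does not mark strand, so reads from exons shared by overlapping genes cannot be told apart. Overlap was taken from whole gene spans, introns included, and overlap of exons was not tested.

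After edgeR's filterByExpr (minimum count 10) and TMM scaling, the 13888 genes left were tested by robust quasi-likelihood in edgeR 4.0.16 under R 4.3.3. The model held genotype alone, and p-values were Benjamini-Hochberg adjusted. The common biological coefficient of variation was 0.197. Standard errors are the log2 fold change divided by the square root of F. Normalised counts are counts over the TMM-scaled library size, times the geometric mean of those sizes. Each library was taken as 1 heart, as the labels number biological replicates. All pairs of libraries differed by more than sampling noise. The test scripts were checked on simulated data. Alternatives were DESeq2 1.42.0, 3 other scalings, 2 other filters, mitochondrial genes left out, limma-voom (limma 3.58.1) with quality weights, a replicate block and each library left out. Members and lists were chosen with earlier results of these data known. All 44 members are named, with values in every library for *Ttn*, *Csrp3*, *Tcap*, the ankyrin repeat genes, the 3 smallest p in each direction and every gene with separated groups.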

Additional observations from a re-analysis of the deposited data

How the results depend on the processing

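No member of the 44 genes that was tested passed an adjusted p of 0.05 under any of the 15 alternatives, of which 1 (at least 10 counts in every library) tested 42 and left out *Myl4* and *Ankrd2*. The direction was the same in each alternative that tested the gene for 20 of 44 members. With 3 hearts per group the precision is limited by the spread between hearts. Over all genes, 0 passed in the main test, 1 in DESeq2, 3 without a filter on low counts, 3 in limma-voom with quality weights and 0 to 3 when each library was left out, the 3 without Pontin cTG replicate 2. Members at an unadjusted p under 0.05 were 0 in the main test and in DESeq2, 1 without a filter (*Tpm2*), 3 in limma-voom with quality weights (*Myl4*, *Myot* and *Ankrd1*), and 0 to 3 when a library was left out, the most without Pontin cTG replicate 1 (*Tpm2*, *Tcap* and *Xirp1*). Genes of all at that threshold numbered 794 (5.72%) in limma-voom, 217 (0.847%) in DESeq2 and 478 (1.86%) without a filter. They numbered 122 to 686 (0.847% to 4.91%) with a library left out, and 636 (4.48%) without Pontin cTG replicate 1. With a replicate block there was 1 member (*Xirp1*) and 499 genes of all (3.59%). Same-numbered libraries deviated together with correlations of 0.069, 0.43 and 0.19, and the labels name no shared litter, so the numbers were not taken as pairs. The median of the members was 0.0013 when scaled to cardiomyocyte markers, -0.011 with limma-voom, and -0.093 to -0.015 with a library left out. Members with separated groups were 3 with DESeq2's size factors, without a filter and without mitochondrial genes (*Tpm1* lost), and 5 with marker scaling (*Myot* added). The share of all genes with separated groups is not given for these settings, so these counts cannot be set beside it. Marker scaling moved the median of all genes to 0.089. Of the other sarcomere and costamere genes (48 tested in the main test), 0 to 10 were at an unadjusted p under 0.05 with a library left out. The 10 came without Pontin cTG replicate 1, where 4.48% of all genes were at that threshold. For these genes, leaving out a library was chosen after seeing the data, as were the filters for separated groups. The cause of these differences was not tested.

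Directions of single members turned as follows, as log2 fold changes. With marker scaling, *Myom3* was 0.047, *Actn2* was 0.048, *Ldb3* was 0.016, *Csrp3* was 0.087, *Fhl2* was 0.088. With library size alone, *Csrp3* was 0.0299 and *Fhl2* 0.026, and with at least 10 counts in every library they were 0.0054 and 0.0035. With limma-voom, *Tnnt2* was -0.00022, *Tpm4* was -0.011, *Myom1* was 0.012, *Fhl1* was 0.093, *Klhl41* was 0.067. Without a filter, *Unc45b* was -0.0023. With each library left out, ranges of the 22 members that turned at least once were *Tpm3* -0.071 to 0.18, *Tpm4* -0.11 to 0.20, *Neb* -0.61 to 0.36, *Lmod3* -0.28 to 0.074, *Tmod1* -0.42 to 0.015, *Ttn* -0.46 to 0.0803, *Myom3* -0.29 to 0.28, *Obsl1* -0.0403 to 0.19, *Actn2* -0.087 to 0.011, *Ldb3* -0.13 to 0.049, *Csrp3* -0.051 to 0.061. The ranges of the rest were *Myoz2* -0.033 to 0.071, *Mypn* -0.39 to 0.023, *Pdlim3* -0.29 to 0.14, *Flnc* -0.42 to 0.043, *Fhl1* -0.54 to 0.25, *Fhl2* -0.064 to 0.088, *Synpo2* -0.31 to 0.0043, *Xirp2* -0.26 to 0.018, *Unc45b* -0.049 to 0.0796, *Klhl41* -0.34 to 0.062, *Ankrd2* -0.0998 to 0.40.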
